A study of Mus musculus with 2 samples.

Results

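The clustered protocadherins are cadherin-like adhesion proteins encoded in 3 neighbouring gene clusters, alpha, beta and gamma. Single neurons are known to switch on different combinations of them, and the proteins bind the same isoform on a facing membrane, which lets a neuron tell its own branches from those of others. In the alpha and gamma clusters each gene contributes 1 large variable exon, with its own promoter, that is spliced to constant exons common to the whole cluster. Beta genes have no constant exons. The C-type members at the end of the alpha and gamma clusters differ from the other, alternate, isoforms in sequence and are known to be used more evenly across neurons than by random choice.

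Members were the protein-coding genes whose symbol begins with Pcdha, Pcdhb or Pcdhg, which gave 57 of the 21474 protein-coding genes in the tables. They comprised 12 alternate and 2 C-type members of the alpha cluster, 22 beta members, and 18 alternate and 3 C-type members of the gamma cluster. Pcdhgb8 is annotated as a polymorphic pseudogene and was left out. The symbol Pcdha11 is carried by 2 identifiers, ENSMUSG00000007440 and ENSMUSG00000102206, and no member carries the symbol Pcdha10. Both were kept and are named by identifier. On chromosome 18 of GRCm38 the alpha members span 36930184 to 37187661, the beta members 37264938 to 37524479 and the gamma members 37661793 to 37841873, all on the forward strand.

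The samples were 2 libraries of total RNA over 200 nt from midbrain of B6NCrl mouse embryos at 13.5 days, labelled as biological replicates 1 and 2 of 1 group. Each library pooled male and female tissue and began from 10 ng of RNA with spike-in RNA. No allele or agent is given in the labels, and with 1 group there was no comparison between conditions. The comparisons are between members within the tissue, and between the libraries.

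Replicate 1 held 31436613 and replicate 2 held 40215359 expected reads on genes. All 6 markers each of neurons, progenitors and midbrain in the lists used were detected, which here means a TPM (a level scaled to transcript length and library size) of at least 1 in both libraries. The libraries were not alike in regional content. The summed level of 4 dopaminergic markers was 35.3 TPM in replicate 1 and 93.3 TPM in replicate 2, that of 4 serotonergic markers 5.04 and 15.9 TPM (3 of 4 detected), that of 4 forebrain markers 3.56 and 15.6 TPM (1 of 4 detected) and that of 4 choroid plexus markers 73.6 and 132 TPM. In all 4 lists every marker was higher in replicate 2 among those with a mean of at least 50 reads. The same held for the midbrain markers (220 and 258 TPM) and for the endothelial, meningeal and erythroid markers below, with smaller median differences than in the 4 lists. Pan-neuronal markers summed to 3134 and 2926 TPM, and progenitor markers to 2114 and 2012 TPM. Spike-ins held 5.36% of the TPM total in replicate 1 and 9.39% in replicate 2, which lowers the TPM of genes in replicate 2. By reads scaled between the libraries the median log2 ratio, replicate 2 over replicate 1, was -0.06 for pan-neuronal and 0.002 for progenitor markers. All 4 markers each of endothelial, meningeal, microglial and erythroid cells were detected, with sums of 85.8 and 92.9 TPM, 230.3 and 281 TPM, 22.5 and 23.1 TPM, and 9794 and 10082 TPM. The part of these differences in the results below was not tested, except where a value is given. In RNA from whole tissue, fewer cells of a type and less RNA per cell cannot be told apart.

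Most members were expressed, at low levels. Of 57 members 50 were detected, against 60.2% of all protein-coding genes. Among genes with a mean TPM of at least 0.5, the median level was 3.13 TPM over 55 members and 17.0 TPM over 14005 protein-coding genes, and 2 members, Pcdhgc3 and Pcdhgc4, reached the latter. All 21 gamma members were detected, as were 13 of 14 alpha members and 16 of 22 beta members. The 7 that were not detected were Pcdha1, Pcdhb1, Pcdhb2, Pcdhb13, Pcdhb14, Pcdhb15 and Pcdhb18. Pcdhb1 was listed at 0 reads in both libraries, and Pcdhb13 stood at 0.47 and 0.42 TPM in replicates 1 and 2. These were also the members under the minimum for testing. Pcdhb2 (1.08 and 0.95 TPM), Pcdhb15 (1.07 and 0.96 TPM) and Pcdhb18 (1.36 and 0.98 TPM) passed 1 TPM in replicate 1 alone, while Pcdha1 (0.76 and 0.71 TPM) and Pcdhb14 (0.68 and 0.57 TPM) lay under it in both.

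**Figure D1:**
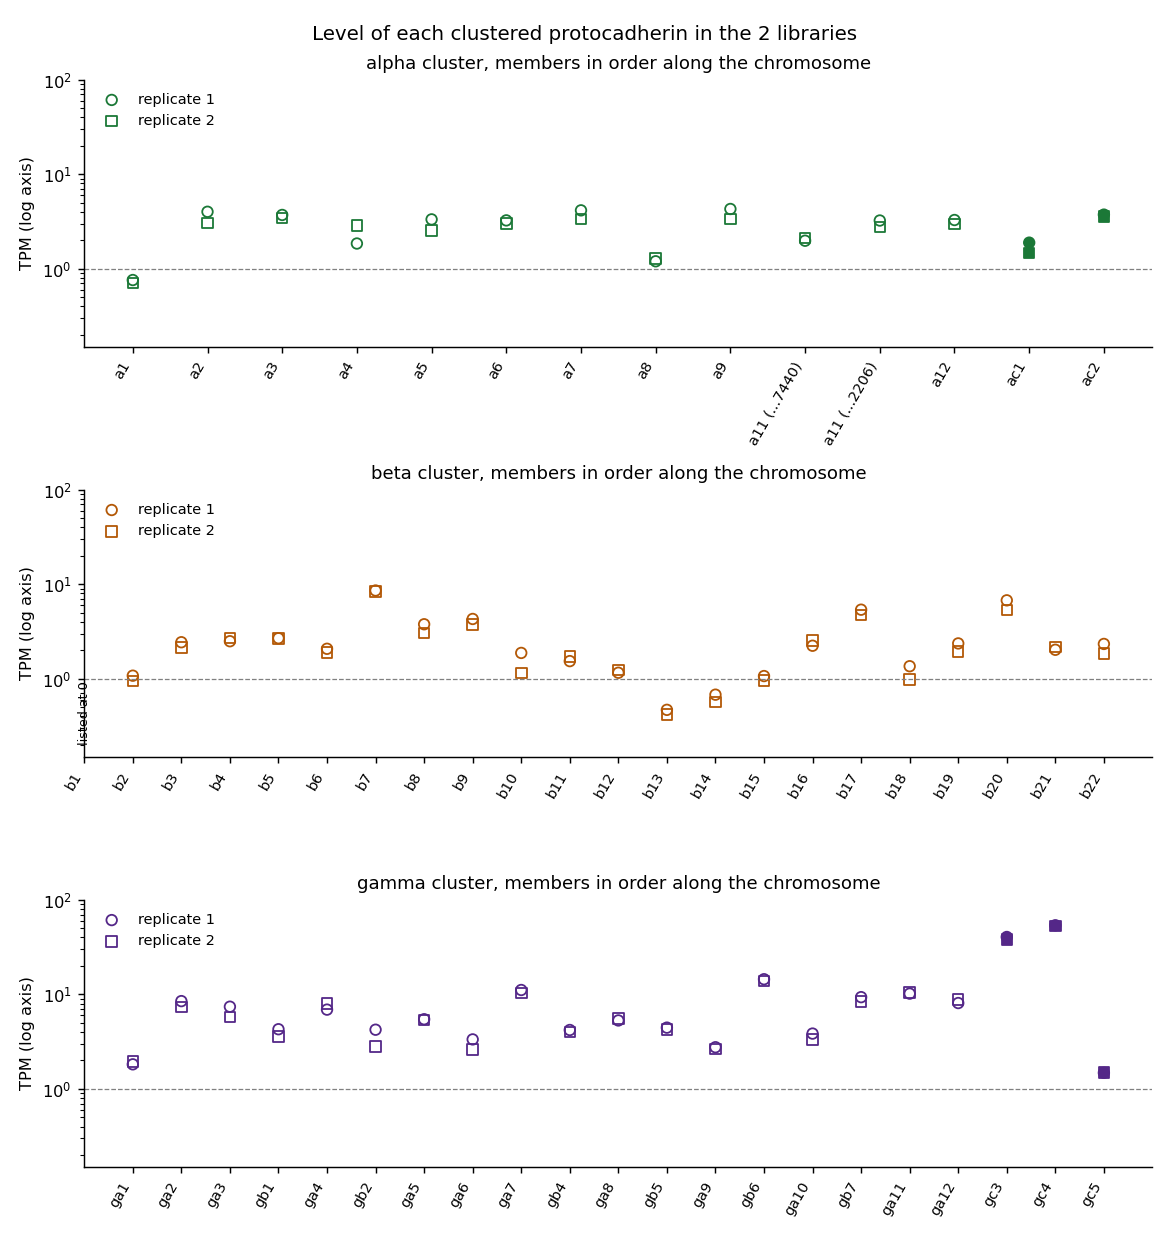
TPM (log axis) of every member in replicate 1 (circles) and replicate 2 (squares), placed in order along the chromosome within each cluster. Filled symbols are C-type members and the dashed line is 1 TPM. Pcdhgc3 and Pcdhgc4, at means of 39.4 and 53.5 TPM, stand above all other members, and Pcdhb1 is listed at 0.

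The gamma cluster held most of the clustered protocadherin RNA. Its members summed to 212 TPM in replicate 1 and 202 TPM in replicate 2, those of the beta cluster to 56.8 and 51.2 TPM, and those of the alpha cluster to 40.7 and 36.5 TPM. The 3 sums did not overlap between clusters. The gamma sum was 5.20 and 5.54 times the alpha sum in the 2 libraries, and 3.73 and 3.94 times the beta sum. Without the C-type members the ratios were 3.30 and 3.47 against alpha, and 2.04 and 2.13 against beta. A sum over a cluster does not depend on which member a read of a constant exon was given to, other than through transcript length. By expected counts, which are not scaled to length, the gamma sum was on average 4.36 times the alpha and 4.07 times the beta sum. Reads given to non-members with gamma constant exons, such as the read-through gene Gm42416 (128.9 and 34.1 reads), are outside the sum.

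The typical alternate isoform followed another order, with alpha above beta. The median level was 5.38 and 5.46 TPM for gamma alternates, 3.27 and 2.92 TPM for alpha alternates and 2.16 and 1.92 TPM for beta members. On the log2(TPM + 0.1) scale the gamma median lay 0.79 ± 0.13 (SD, n = 2) above the alpha median and 1.37 ± 0.13 above the beta median. The alpha median lay 0.58 ± 0.01 above the beta median. These differences between medians are described and were not tested. The beta cluster summed to more than alpha with a lower median, having 22 members to 14.

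**Figure D2:**
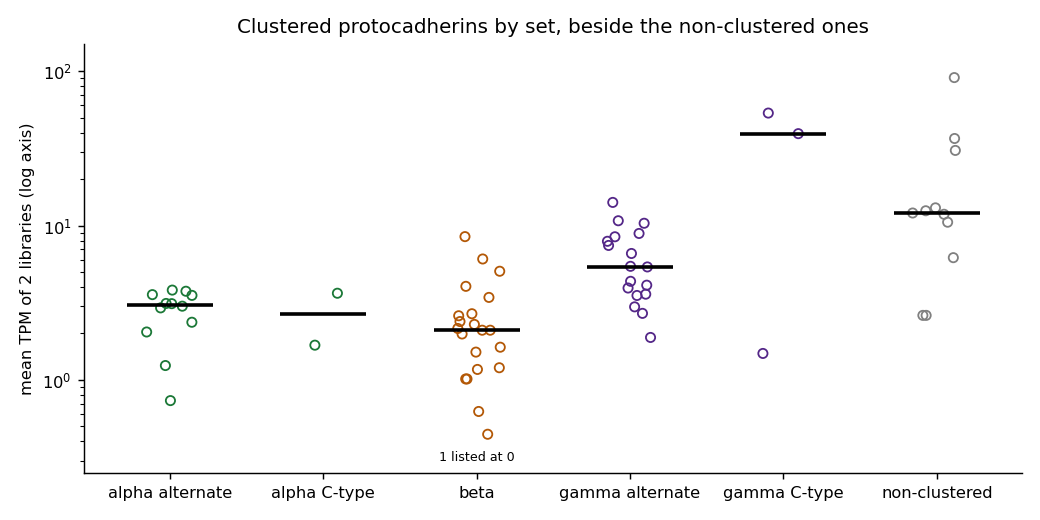
Mean TPM over the 2 libraries (log axis) of each member by set, beside 11 non-clustered protocadherins. Each circle is a gene, the bar is the median of the set, and horizontal scatter has no meaning. Gamma alternates lie between 1.89 and 14.1 TPM, beta members between 0 and 8.48 TPM and alpha alternates between 0.735 and 3.82 TPM.

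The 5 C-type members ranged from 1.49 to 53.5 TPM by mean. Pcdhgc4, which mouse genetics has tied to the survival of neurons, stood at 53.9 TPM in replicate 1 and 53.2 TPM in replicate 2. Pcdhgc3, which is known to promote dendrite branching through Axin1, stood at 40.5 and 38.3 TPM. The third gamma C-type, Pcdhgc5, known as an isoform that appears later in postnatal neurons, was at 1.48 and 1.49 TPM. Pcdhac2, the alpha isoform used by serotonergic neurons for the spacing of their axons, stood at 3.74 and 3.55 TPM, and Pcdhac1 at 1.89 and 1.47 TPM. The values of Pcdhgc4, Pcdhgc3 and Pcdhac2 did not overlap with each other or with those below them, while Pcdhac1 and Pcdhgc5 overlapped.

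Each member was tested against the median of its cluster's alternate (or beta) members with limma on log2(TPM + 0.1), fitted over 14005 protein-coding genes with Benjamini-Hochberg adjustment. The p-values measure only the spread between these 2 libraries. The spread behind each SE and p-value comes largely from genes of similar level, and only in small part or, in some fits, not at all from a member's own values. The reference's own shift between the libraries enters the spread of every gene. SEs and counts of calls are therefore not comparable between clusters. Over all genes tested the median SE was 0.108 against the alpha, 0.112 against the beta and 0.086 against the gamma reference. An alternate or beta member is itself among the members behind the median. Pcdhgc4 lay 9.72-fold (log2 3.28, SE 0.07, adjusted p = 6.55e-40) and Pcdhgc3 7.15-fold (log2 2.84, SE 0.08, adjusted p = 1.36e-36) above the median gamma alternate. Of all genes tested, 70.8% lay above that reference and 23.7% below it. Pcdhgc5 lay 3.48-fold below it (log2 -1.80, SE 0.20, adjusted p = 8.23e-12). Pcdhac1 lay 1.80-fold below the median alpha alternate (log2 -0.85, SE 0.23, adjusted p = 2.19e-04), where 78.3% of all genes lay above and 15.0% below. Pcdhac2 was at log2 0.23 (SE 0.17, adjusted p = 0.193), short of the threshold of 0.05. Against the mean of the alpha alternates' log2(TPM + 0.1) values in place of the median it lay above, at log2 0.51 (adjusted p = 0.00641), beside 80.6% of all genes. Pcdhac1 lay 2.12-fold below Pcdhac2 (log2 -1.08, SE 0.18, adjusted p = 5.87e-04), beside 17.3% of all genes that lay below Pcdhac2.

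The order of Pcdhgc4 and Pcdhgc3 depended on which transcripts were counted. At the level of the gene Pcdhgc4 was 1.36-fold above Pcdhgc3 (log2 0.44, SE 0.05, adjusted p = 2.84e-05), while 26.9% of all genes lay above Pcdhgc3 and 68.6% below it. Pcdhgc5 lay 24.9-fold below Pcdhgc3 (log2 -4.64, SE 0.19, adjusted p = 1.66e-08). Most of the Pcdhgc4 level was given to a coding transcript of 2272 nt (ENSMUST00000195239), at 32.2 TPM in replicate 1 and 33.9 TPM in replicate 2. Its first exon is 153 nt long and covers 0.857% of the coding part of the variable exon, and constant exons make up 93.3% of its length. The single-exon transcript with a retained intron (ENSMUST00000193222) stood at 15.7 and 14.2 TPM. The transcript that joins the whole variable exon to the constant exons (ENSMUST00000066140) stood at 5.94 and 5.11 TPM, 10.3% of the mean level of the gene. The full-length transcript of Pcdhgc3 (ENSMUST00000076807) stood at 31.9 and 32.7 TPM, 81.9% of that gene's level, and a transcript annotated for nonsense-mediated decay at 8.03 and 5.17 TPM.

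Counting only transcripts with at least 50% of the coding part of the variable exon, a choice made after seeing the data, Pcdhgc4 lay 1.92-fold below Pcdhgc3 (log2 -0.94, SE 0.07, adjusted p = 6.68e-07), beside 68.6% of all genes. Counting only full-length coding transcripts it lay 5.77-fold below (log2 -2.53, SE 0.12, adjusted p = 1.85e-101), beside 63.4% of all genes. On that scale Pcdhgc4 was at log2 0.11 (SE 0.12, adjusted p = 0.385) from the median gamma alternate, so its difference from the alternates did not pass the test. Pcdhgc3 kept its direction, 6.23-fold above the median gamma alternate (SE 0.11, adjusted p = 2.81e-133), as 71.6% of all genes lay above that median. The weight that limma gave to the spread of other genes, its prior degrees of freedom, differed between fits. Against the gamma alternates it was 46.6 by all transcripts, and against Pcdhgc3 7.48 by transcripts with the variable exon. By full-length transcripts it was infinite in both, so the sizes of these p-values cannot be compared. For the shares of all genes given here, only the members were restricted by transcript, and other genes kept their whole level. In total, 1 of 5 C-type members lay above its cluster's alternates by full-length transcripts and 2 of 5 by all transcripts. With the mean of log2 values as reference in place of the median, 3 of 5 did by all transcripts. Of the 75-nt windows of the short Pcdhgc4 transcript, 93.1% occur in other members too. The tables do not say which reads its value rests on.

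**Figure D3:**
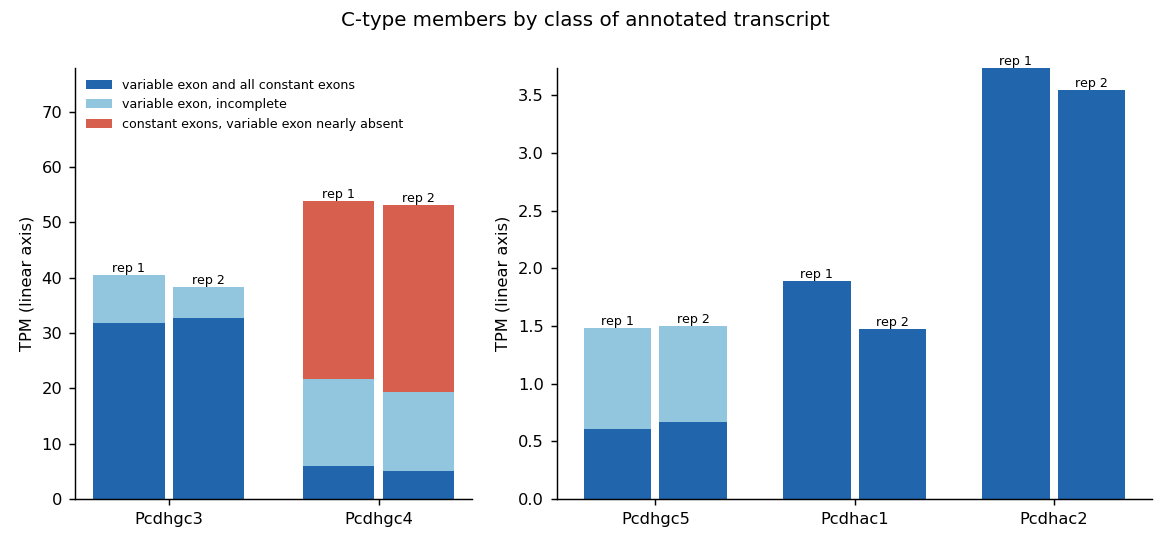
TPM (linear axis from 0) of the 5 C-type members in each library, divided by class of annotated transcript. Red marks transcripts of the constant exons with almost none of the variable exon, which hold 32.2 and 33.9 TPM of Pcdhgc4 and nothing of Pcdhgc3, while full-length transcripts (dark blue) hold 31.9 and 32.7 TPM of Pcdhgc3 and 5.94 and 5.11 TPM of Pcdhgc4.

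The share of the gamma cluster held by its 3 C-type members moved with the same choice. It was 45.3% and 46.0% of the summed level in the 2 libraries over all transcripts, 35.5% and 35.1% over transcripts with the variable exon and 26.7% and 28.1% over full-length transcripts. Pcdhgc4 alone held 25.9% ± 0.61 (SD, n = 2) and Pcdhgc3 19.0% ± 0.14 of the summed level over all transcripts. In the alpha cluster the 2 C-type members held 13.8% in each library over all transcripts, and 15.5% and 15.7% over full-length transcripts.

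Of the windows of full-length Pcdhgc3, 31.2% lie opposite the antisense gene BC037039, which stood at 7.72 and 6.98 TPM. The labels and headers do not say if reads were counted by strand, and without strand the reads of such pairs cannot be told apart. The scaled reads of Pcdhac2 in replicate 2 were 0.979 times those in replicate 1 (95% counting interval 0.862 to 1.11). In the same libraries Tph2, the enzyme that begins serotonin synthesis in the brain, was at 1.76 and 6.07 TPM, the serotonin transporter Slc6a4 at 1.61 and 5.51 TPM and the transcription factor Fev at 1.49 and 3.95 TPM. The relation of Pcdhac2 to these markers was not tested.

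The alternate alpha isoforms had means between 0.735 and 3.82 TPM. The highest were Pcdha9 at 4.29 and 3.35 TPM, Pcdha7 at 4.15 and 3.36 TPM, Pcdha3 at 3.71 and 3.43 TPM and Pcdha2 at 4.01 and 3.05 TPM. Their values overlapped, and the highest by mean, Pcdha9, was 1.02 times the next. By limma 0 of the 12 lay above the alpha median (also 0 at an unadjusted p under 0.05), and 3 lay below it, beside 78.3% of all genes above and 15.0% below. Pcdha1 was the lowest, 3.82-fold below (adjusted p = 1.79e-10). Pcdha8, at 1.20 and 1.28 TPM, was 2.38-fold below (adjusted p = 8.77e-07). Pcdha11 ENSMUSG00000007440, at 1.98 and 2.11 TPM, was 1.49-fold below (adjusted p = 0.00784). The other 9 did not pass the test, among them Pcdha4, close to the threshold (adjusted p = 0.0514), whose values in the libraries span those of Pcdha11 ENSMUSG00000007440.

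Beta genes encode whole proteins without constant exons, and their levels ranged from 0 to 8.48 TPM. Pcdhb7 led at 8.60 TPM in replicate 1 and 8.36 TPM in replicate 2, followed by Pcdhb20 at 6.77 and 5.38 TPM, Pcdhb17 at 5.39 and 4.73 TPM and Pcdhb9 at 4.30 and 3.78 TPM. These 4 members held 43.8% of the beta sum. Of 20 members tested, 5 lay above the beta median and 5 below it, beside 83.2% and 9.8% of all genes. The reference is the median of the beta members themselves, so this even split carries no information. Pcdhb7 lay 4.02-fold above (adjusted p = 3.96e-45), and Pcdhb8, the lowest of those called above, 1.64-fold (adjusted p = 8.60e-05). Pcdhb14 lay 2.95-fold below (adjusted p = 1.20e-06). The others called below were Pcdhb2, Pcdhb12, Pcdhb15 and Pcdhb18, between 1.64-fold and 1.92-fold.

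Among gamma alternates Pcdhgb6 led at 14.5 and 13.8 TPM, with Pcdhga7 at 11.1 and 10.4 TPM, Pcdhga11 at 10.2 and 10.5 TPM and Pcdhgb7 at 9.35 and 8.43 TPM. Pcdhgb6 did not overlap with the rest, while Pcdhga7 and Pcdhga11 overlapped. Of the 18, 8 lay above their median, 8 below it and 2 did not pass the test, beside 70.8% of all genes above and 23.7% below. Since the reference is the median of the set itself, the even split carries no information. Pcdhgb6 lay 2.58-fold above (adjusted p = 4.70e-20). The lowest, Pcdhga1 at 1.82 and 1.95 TPM, lay 2.78-fold below (adjusted p = 1.10e-10), and Pcdhga9, at 2.76 and 2.64 TPM, 1.97-fold below (adjusted p = 6.36e-08). The A and B subfamilies, which alternate along the cluster, spanned overlapping ranges. The 12 A members had medians of 6.18 and 5.69 TPM and the 6 B members 4.37 and 4.14 TPM.

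**Figure D4:**
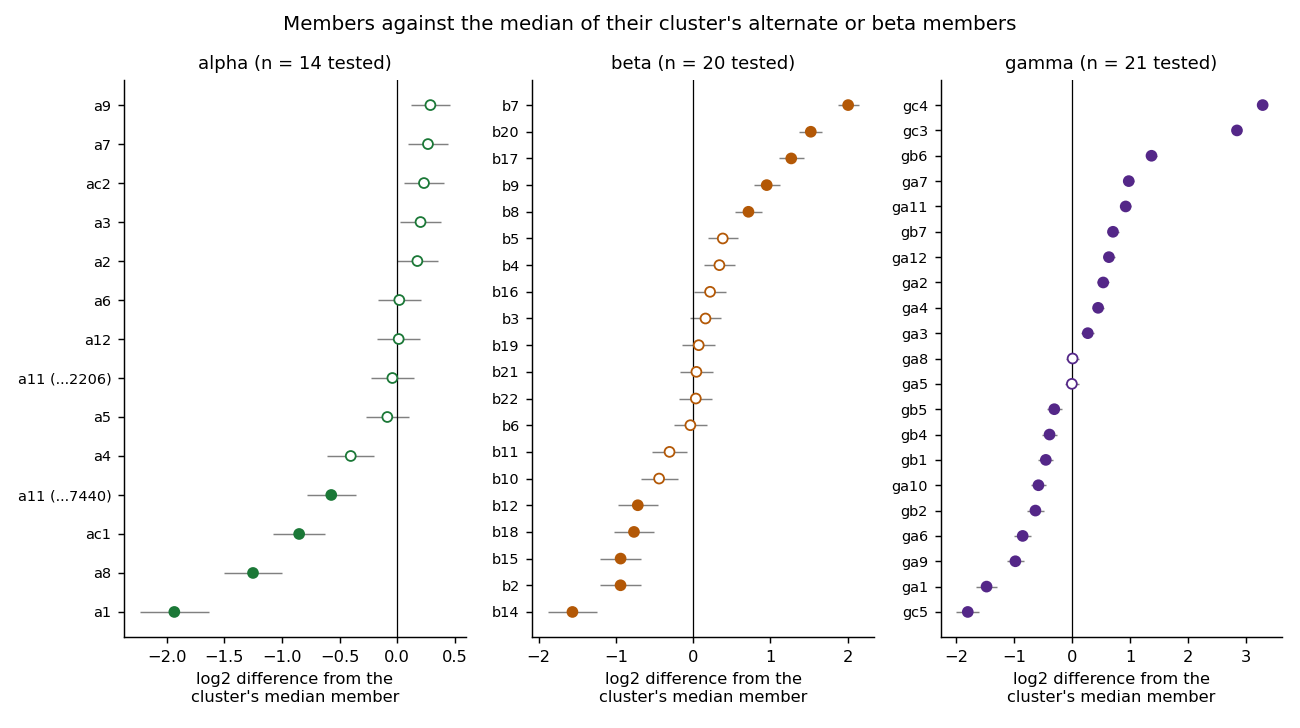
Difference of each tested member from the median of its cluster's alternate or beta members, on the log2(TPM + 0.1) scale, with its SE as a bar. Filled circles passed an adjusted p of 0.05 (limma). Alpha members are bunched at the top of their range with a tail below, beta members spread both ways, and Pcdhgc4 and Pcdhgc3 stand at 3.28 and 2.84 above the gamma alternates.

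The order of members was much the same in the 2 libraries. The Spearman rho across members between the libraries was 0.85 over 12 alpha alternates, 0.97 over 22 beta members and 0.97 over 18 gamma alternates. Members are genes of the same 2 libraries and not independent replicates, so these are descriptions. Reads were scaled between the libraries by the TMM method. With a mean of at least 50 reads, 2 of 55 members differed at least 1.5-fold, against 2.72% of protein-coding genes. Pcdhb10 was at 1.88 TPM in replicate 1 and 1.15 TPM in replicate 2, and its scaled reads were 1.60 times higher in replicate 1 (95% counting interval 1.19 to 2.16).

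Pcdha4 was at 1.85 TPM in replicate 1 and 2.88 TPM in replicate 2, 1.64 times higher in replicate 2 (interval 1.33 to 2.02). Of the windows of its full-length transcript, 97.0% occur in another gene and 56.8% in another member. Gm42416, a protein-coding read-through gene, is annotated with nearly the whole Pcdha4 variable exon joined to constant exons of the gamma cluster. Gm42416 had 128.9 expected reads in replicate 1 and 34.1 in replicate 2, and Pcdha4 139.1 and 294.5. Their sum was 0.949 times as high in replicate 2 as in replicate 1 (interval 0.806 to 1.12). The sum was chosen after both values were seen, and the part of read division in the difference of Pcdha4 was not tested.

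**Figure D5:**
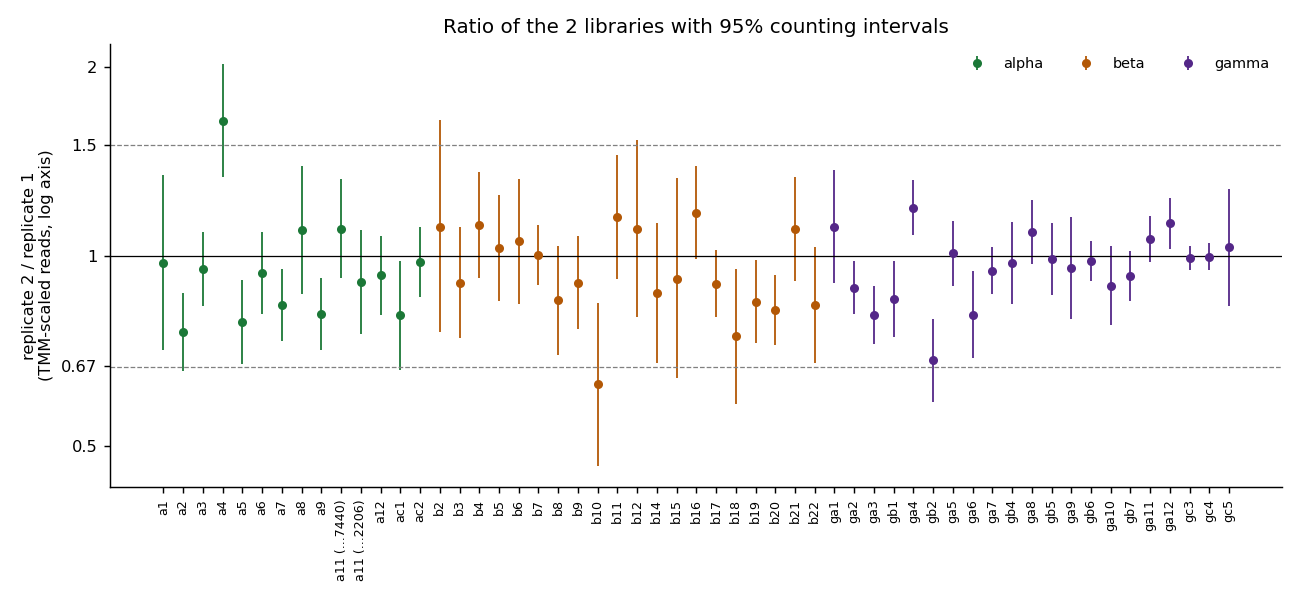
Ratio of scaled reads, replicate 2 over replicate 1 (log axis), for the 55 members with a mean of at least 50 reads, with exact 95% intervals that cover counting error only. Dashed lines mark 1.5-fold in each direction. Pcdha4 at 1.64 and Pcdhb10 at 0.625 lie outside them.

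As a group the members were slightly lower in replicate 2. Of the 55, 36 were higher in replicate 1 and 19 in replicate 2. Of protein-coding genes with the same minimum of reads, 51.6% were higher in replicate 2. The median log2 ratio was -0.07 over the members and 0.01 over protein-coding genes. By cluster the median was -0.10 for alpha, -0.13 for beta and -0.02 for gamma.

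Most members have 1 annotated transcript (36 of 57). Of the 21 with more, 19 had the same leading transcript in both libraries. In Pcdha2 the lead passed from a 4-exon coding form (2.24 and 0.94 TPM) to a 5-exon one (1.77 and 2.12 TPM), and the deposited intervals of each form overlap between the libraries. In Pcdhga9 a retained-intron form (1.30 and 1.41 TPM) and the full-length form (1.46 and 1.22 TPM) exchanged the lead. Transcripts without constant exons also led in Pcdhgb4, where a processed transcript stood at 3.07 and 3.17 TPM and the full-length form at 1.13 and 0.85 TPM. The same was found in Pcdha4 (1.13 and 1.57 TPM for the retained-intron form) and in Pcdha11 ENSMUSG00000102206 (2.05 and 1.52 TPM), whose 2 full-length forms were at 0 in replicate 1. In Pcdhgc5 a retained-intron form with 3 exons led, at 0.87 and 0.83 TPM. In Pcdhb22 a coding transcript with 78.1% of the coding exon led, with 64.2% and 62.5% of the gene's level, over the full-length form at 0.84 and 0.70 TPM. Retained-intron forms are annotated for few members, so values of full-length transcripts are not equally free of intron-containing RNA in all members.

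Shared sequence differed by cluster. The constant exons are 2860 nt long in alpha and 2119 nt in gamma. The median share of a full-length transcript's 75-nt windows found in another member was 57.6% for alpha alternates, 44.6% for gamma alternates, 43.9% for gamma C-types and 1.23% for beta members. The coding parts of the variable exons had a median pairwise identity of 76.1% among alpha alternates, 73.0% among beta members and 68.8% among gamma alternates. C-type exons were further off, at 53.1% with the alpha and 55.3% with the gamma alternates. The closest pair was Pcdhb6 and Pcdhb8 at 88.9%, with 3.7% and 2.0% of their windows found in another member. Among beta members that share was largest for Pcdhb21 (9.0%) and Pcdhb22 (6.1%). Values of members with shared windows are uncertain to the extent that reads could not be assigned.

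The deposited TPM intervals were not wider in the clusters that share exons. The median width was 25.7% of the TPM for alpha alternates, 30.1% for beta members and 21.4% for gamma alternates. It was 28.8% over 5258 protein-coding genes between 1 TPM and the mean of Pcdhgb6, the highest member outside the C-types. The widest intervals were those of Pcdhb2 (98.0%), Pcdha4 (97.7%) and Pcdhgc5 (95.8%), and the narrowest that of Pcdhgc3 (10.1%). The widths also follow the number of reads, and their confidence level is not stated. Overlap with an antisense gene was largest for Pcdhb12 (62.6% of windows), Pcdhga10 (54.5%) and Pcdha11 ENSMUSG00000102206 (44.9%).

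The non-clustered protocadherins, adhesion genes that lie apart from the clusters and each have their own transcripts, were detected in all 11 cases. They summed to 236 TPM in replicate 1 and 223 TPM in replicate 2, and the clustered members to 1.31 and 1.30 times that. The full-length transcripts of the clustered members alone summed to 234 and 218 TPM, below the sum of the non-clustered genes over all their transcripts. Their median was 12.8 and 11.4 TPM, above that of each alternate set. Among delta-1 members Pcdh9 stood at 99.9 and 81.9 TPM, Pcdh11x at 13.8 and 12.2 TPM, Pcdh7 at 10.5 and 10.6 TPM and Pcdh1 at 5.68 and 6.71 TPM. Among delta-2 members Pcdh8 stood at 32.1 and 41.2 TPM and Pcdh18 at 30.3 and 31.1 TPM. Pcdh17 (13.6 and 11.4 TPM), Pcdh10 (12.8 and 11.4 TPM) and Pcdh19 (12.4 and 11.3 TPM) followed. Pcdh12 (2.71 and 2.53 TPM) and Pcdh20 (2.56 and 2.68 TPM) were the lowest. Pcdhgc4 and Pcdhgc3 lay below Pcdh9. At the level of the gene both lay above the other 10 in replicate 1, and in replicate 2 Pcdh8 lay above Pcdhgc3. By transcripts with the variable exon Pcdhgc4 stood at 21.6 and 19.3 TPM, below Pcdh8 and Pcdh18 as well, and its full-length transcript at 5.94 and 5.11 TPM was below 8 of the 11 in replicate 1 and 9 in replicate 2.

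Genes known to act on the clusters or with their proteins were detected with 1 exception. All 18 listed regulators of promoter choice were detected, with a median of 33.1 and 30.7 TPM. Ctcf, whose protein binds the promoters of most isoforms and anchors their contact with enhancers, stood at 109 and 104 TPM. The de novo DNA methyltransferase Dnmt3a stood at 87.9 and 94.2 TPM and the cohesin subunit Smc1a at 83.2 and 69.8 TPM. Dnmt3b, the methyltransferase known to set methylation of the alternate promoters in early embryos, was the lowest, at 4.09 and 4.19 TPM. Of 19 partners and processing enzymes 18 were detected. The GTPase Rac1 (207 and 221 TPM) and the WAVE complex subunits Brk1 (188 and 178 TPM) and Wasf1 (76.8 and 76.0 TPM) led. The kinase Ptk2b, which the constant part of the alpha and gamma proteins is known to inhibit together with the related kinase Ptk2, was at 0.57 and 0.32 TPM, and Ptk2 at 43.5 TPM in both.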

How the data were processed

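Gene and transcript tables of 2 libraries were used. Per the text deposited with each library, they were made on mm10 with GENCODE M4. The deposited expected counts are estimated reads per gene or transcript. The deposited TPM and FPKM values are scaled to length, TPM to 1 common total per library with spike-ins included, per the file headers and column sums. The deposited percent values give each transcript's share of its gene. The bounds of the TPM interval are used as deposited scores with no confidence level. The aligner, tool versions and use of strand are not stated there. Reads that match several members are divided between them by estimation.

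Names, types and positions came from GENCODE M21 (GRCm38), with 42462 of 43346 identifiers matched. Members and lists were chosen with earlier results of these data known. Detection required 1 TPM or more in each library. Levels were compared with limma 3.58.1 in R 4.3.3 on log2(TPM + 0.1), each value relative to the reference in the same library, over protein-coding genes with a mean TPM of at least 0.5. The fit was intercept-only with a trended prior, two-sided, and called at an adjusted p of 0.05. Expected counts were rounded and scaled by TMM (edgeR 4.0.16, ratio 1.29). Clopper-Pearson 95% intervals cover counting error only. The fit was tested on simulated data with the same spread for every gene and no division of reads between members. That test does not bear on unequal spread or on read division. A transcript was full-length if coding, with at least 90% of the coding part of the variable exon and some overlap with each constant exon. Forms so classed can differ in constant sequence. It made up 46.6% of 4645 nt in the 5-exon form of Pcdha2 and 53.3% of 5361 nt in the 4-exon form. For beta members only the 90% rule applied. Shared windows are 75-nt stretches found in another gene's transcripts. Named were all C-type members, the 4 highest and 2 lowest of each other set, members apart between the libraries, those not detected, those whose leading transcript changed between the libraries or lacks the constant exons, all non-clustered protocadherins, and the 3 highest and the lowest gene of other lists. Members that complete a count, and those singled out for sequence overlap, interval width or a call near a threshold, were named after their values were seen. Alternatives covered pseudocount, filter, unit, scaling (DESeq2 1.42.0), summary and each library alone.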

Additional observations from a re-analysis of the deposited data

Results flagged for a closer look

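Some genes inside the clusters that are not members had reads, while others were listed at 0 reads in both libraries. BC037039, antisense to Pcdhgc3, had a mean of 359 expected reads over the 2 libraries, at 7.72 and 6.98 TPM. The non-coding genes Gm26672 and Gm10544 had means of 268 and 188 reads. Pcdhgb8, the gamma member annotated as a polymorphic pseudogene, had a mean of 112 reads, at 1.10 and 1.03 TPM. The antisense gene Gm10545 had a mean of 104 reads. Gm42416, the read-through gene that joins the Pcdha4 variable exon to gamma constant exons, had a mean of 81.5 reads. Groups of 2 libraries were too small for a search for outlying samples.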

How the results depend on the processing

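No paired analysis was possible because the study has 1 group. All values rest on 2 libraries, annotated transcripts and estimated read division, and low members on few reads. Leaving out replicate 1 or 2 gave no reversal.

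By transcripts with the variable exon and by full-length transcripts, Pcdhgc4 turned from above to below Pcdhgc3 (log2 -0.94 and -2.53), with the cause not tested. By full-length transcripts 1 C-type member lay above its cluster's alternates. These 2 forms and the sum of Pcdha4 with Gm42416, which left 1 member apart between the libraries by 1.5-fold, were chosen after seeing the data. At 2-fold 0 members were apart.

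In TPM the medians of alpha, beta and gamma became 2.77, 2.45 and 6.25 as means over members. In FPKM, another unit, they were 1.95, 1.29 and 3.42. For gamma alone they moved to 5.29 by posterior means and 5.11 by full-length transcripts. The log2 difference of gamma from alpha was 0.65 with a pseudocount of 1 and 1.15 with means, and that of gamma from beta 1.08 with a pseudocount of 1. Alpha over beta was 0.60 and 0.43 with pseudocounts of 0.01 and 1, 0.56 by FPKM, 0.53 by posterior means, 0.17 with means, 0.59 by transcripts with the variable exon and 0.60 by full-length transcripts.

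By expected counts, which are not scaled to length, the gamma sum was 4.36 times the alpha and 4.07 times the beta sum, and alpha 0.934 times beta. By transcripts with the variable exon these were 4.54, 3.28 and 0.723, and by full-length transcripts 4.12, 2.72 and 0.660. By posterior means alpha was 0.710 times beta. The C-type share of gamma was 38.9% by expected counts, 35.3% by transcripts with the variable exon and 27.4% by full-length transcripts. That of alpha was 15.7%, 13.9% and 15.6% in the same order, and 13.6% by posterior means. Members detected ranged from 38 (TPM of at least 2) to 55 (TPM of at least 0.5), with 44 by FPKM, 51 by posterior means and 50 and 53 in single libraries. Alternate and beta members apart from their median ranged from 27 (mean TPM of at least 1) to 34 (against the mean of log2 values), from 29. Of the other values, tested ones kept their direction and side of the threshold and untested ones stayed within the spread between the libraries or, for ratios by cluster, between members. Pcdhac2 and Pcdhgc4 changed their call against the alternates in 1 alternative each, as given above.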
